A study of Danio rerio with 96 samples.

Results

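Pools of 10 whole zebrafish embryos were compared with pools of 5, both extracted on the day their December exposure ended. The pools of 10 are batch 3 of that pool size, with 8 samples from 80 embryos. Their exposure began on 13 December and their extraction was on 18 December. The pools of 5 are batches 1, 2 and 3 of that pool size, with 8 samples each, 24 samples in all, from 120 embryos. Their exposure began on 12 December, with extraction on 17 December. These 32 of the 96 samples were chosen by their labels (pool size, exposure dates and extraction batch), with no measured value used. Every embryo in both groups was kept in 0.1% dimethyl sulfoxide (DMSO), the vehicle used to dissolve test chemicals, for 5 days until 120 hours post fertilization, and none received another chemical. The series was designed to find the number of embryos per sample that suits dose-response studies.

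At this stage a zebrafish embryo is a free-swimming larva with a beating heart, a developing liver, gut and pancreas, and a nervous system that drives swimming, and a whole-animal RNA sample mixes all of these tissues. RNA from a pool is a mixture of the animals in it, so a pool level is an average over embryos. An RNA that is high in a few animals and low in the rest moves a small pool more than a large one. In such bulk samples, fewer cells of a type and less RNA per cell cannot be told apart. The assay was TempO-Seq, in which pairs of detector oligonucleotides anneal side by side on an RNA and are then ligated and amplified. A count is thus a read of 1 short target on the RNA and not of a whole transcript. The panel is a surrogate set, chosen to stand for the transcriptome. Features are named here by their row in the count table, the top row being 1. No gene or probe is attached to a row, so no feature can be assigned to a tissue, a pathway or a role. For the same reason the labelled tissue, whole embryo, could not be checked against marker genes.

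Total counts ran from 3826634 to 5361803 in the pools of 10 and from 4278771 to 6441627 in the pools of 5. Levels are given as CPM, in which each library is brought to 1 common total after TMM scaling, a correction for differences in composition. A count of 0 allows up to 3 counts, which are 0.813 CPM in the smallest of the libraries and 0.387 CPM in the largest after that scaling. These limits cover counting error only, because the reads carry no molecular identifiers. Of 3183 features, 11 were at 0 in all 32 samples. The share of counts in the 10 most abundant features was 29.6% ± 0.355 in the pools of 10 (SD, n = 8) and 28.8% ± 2.12 in the pools of 5 (SD, n = 24). Libraries are numbered 81 to 88 in the pools of 10 and 9 to 16, 41 to 48 and 73 to 80 in pool5 batches 1, 2 and 3. They lie in plate columns 12 against 8, 9 and 10. Pool size was therefore confounded with extraction batch, exposure date, extraction date and plate column, and these cannot be told apart. Whether the samples of a batch had separate dishes or parents is not in the labels, and p-values thus cover the spread among these samples, part of which may be technical.

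Sample 6 of pool5 batch 1 stood apart from the rest, and samples 5, 7 and 8 of that batch lay to the same side of its samples 1 to 4. On the first principal component of log2 CPM, which held 34.7% of the variance, sample 6 lay at -70.6 and the other samples numbered 5 to 8 lay between -32.5 and -15.0. Samples 1 to 4 of that batch lay between -6.39 and 8.57. The 8 pools of 10 lay between 6.84 and 13.2, against -17.5 to 10.2 in pool5 batch 2 and 9.11 to 14 in pool5 batch 3. The pools of 10 and pool5 batch 3 thus overlapped on this axis. Samples 1 and 4 of pool5 batch 1 reached into the range of the pools of 10, and the other 6 lay below it. The main counts, distances and measures of spread of pool5 batch 1 are given with and without its samples 5 to 8. That samples 5 to 8 differ from samples 1 to 4 was known from earlier results of the same data.

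**Figure D1:**
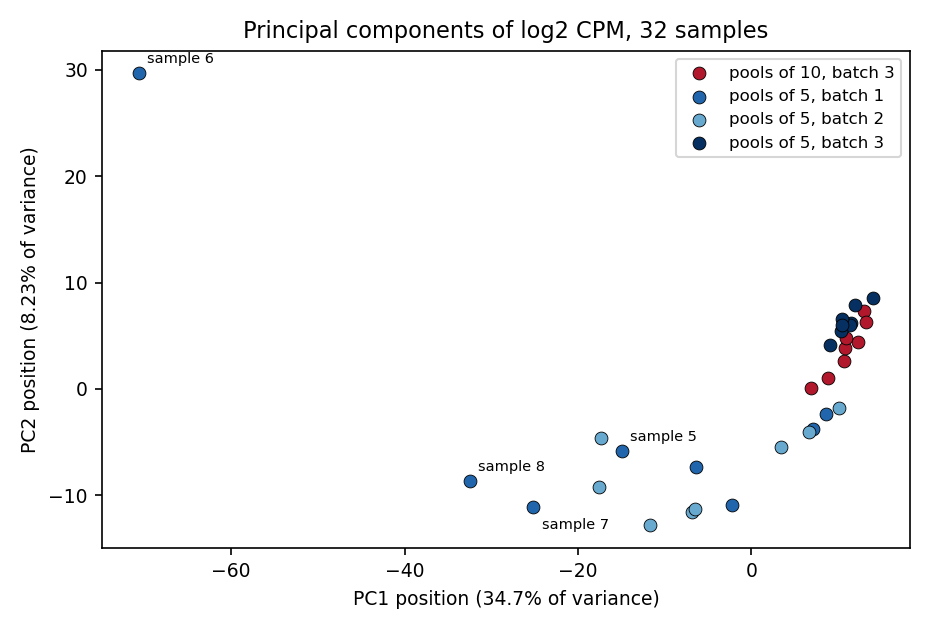
Positions of the 32 samples on the first principal components of log2 CPM (x axis, 34.7% of the variance; y axis, 8.23%), 1 point per sample, coloured by batch. The pools of 10 and pool5 batch 3 sit together at the right, pool5 batch 2 spreads to -17.5 on the x axis, and sample 6 of pool5 batch 1 lies alone at -70.6.

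The first comparison asked whether the level of a feature differed between pools of 10 and pools of 5. It differed most from pool5 batches 1 and 2 and least from pool5 batch 3. Over 2759 features the median absolute log2 change was 0.34 against batch 1, 0.24 against batch 2 and 0.12 against batch 3. Against batch 1 it was 0.18 (2821 features) when samples 5 to 8 of that batch were left out. These medians include the sampling error of batch means, which is larger for batches that vary more. Against the mean of the 3 batches, all samples included, the median absolute log2 change was 0.20. In that comparison 146 features (5.29%) were called, 65 higher (2.36% of features) and 81 lower (2.94%) in the pools of 10. Called means a Benjamini-Hochberg adjusted p below 0.05 in edgeR's quasi-likelihood test. At an unadjusted p under 0.05 there were 679. All 8 pools of 10 and all 24 pools of 5 overlapped in CPM for each of the 2759 features, so that 0 features (0%) parted the groups.

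Counts of calls against single batches followed the same order in the fit of all 32 samples. That fit gives each feature 1 measure of spread for all 4 batches, although the batches differ in spread. Its p-values can be too small against a batch that varies more, and too large against one that varies less. The counts against batches 1, 2 and 3 are thus not on equal terms, and fits of 2 batches gave 476, 504 and 36. In the fit of all 32 samples, 871 features (31.6%) were called between the pools of 10 and pool5 batch 1. Of these, 305 were higher and 566 lower. Against pool5 batch 2 there were 150 (5.44%), 61 higher and 89 lower. Batches 1 and 2 changed places without samples 5 to 8 of batch 1, with 14 calls against batch 1 and 646 against batch 2. Batch 1 then had 4 samples and batch 2 had 8, so these 2 counts are not on equal terms. Against pool5 batch 3 there were 0 (0%), with 124 at an unadjusted p under 0.05 in edgeR and 6 called by DESeq2. Batches of pools of 5 differed from each other as well, although they share pool size, exposure and extraction date. Pool5 batch 1 differed from the mean of batches 2 and 3 in 589 features (21.3%). Pool5 batch 3 differed from the mean of batches 1 and 2 in 718 features (26%). Pool5 batch 2, against batches 1 and 3, had 0 calls (0%), 230 at an unadjusted p under 0.05 in edgeR and 14 calls by DESeq2. The count for pool5 batch 1 was 148 without its sample 6, 19 without its samples 5 to 8 and 0 by limma-voom with a weight per batch. For these settings the pools of 10 against the mean of the pools of 5 had 283, 89 and 667 calls.

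**Figure D2:**
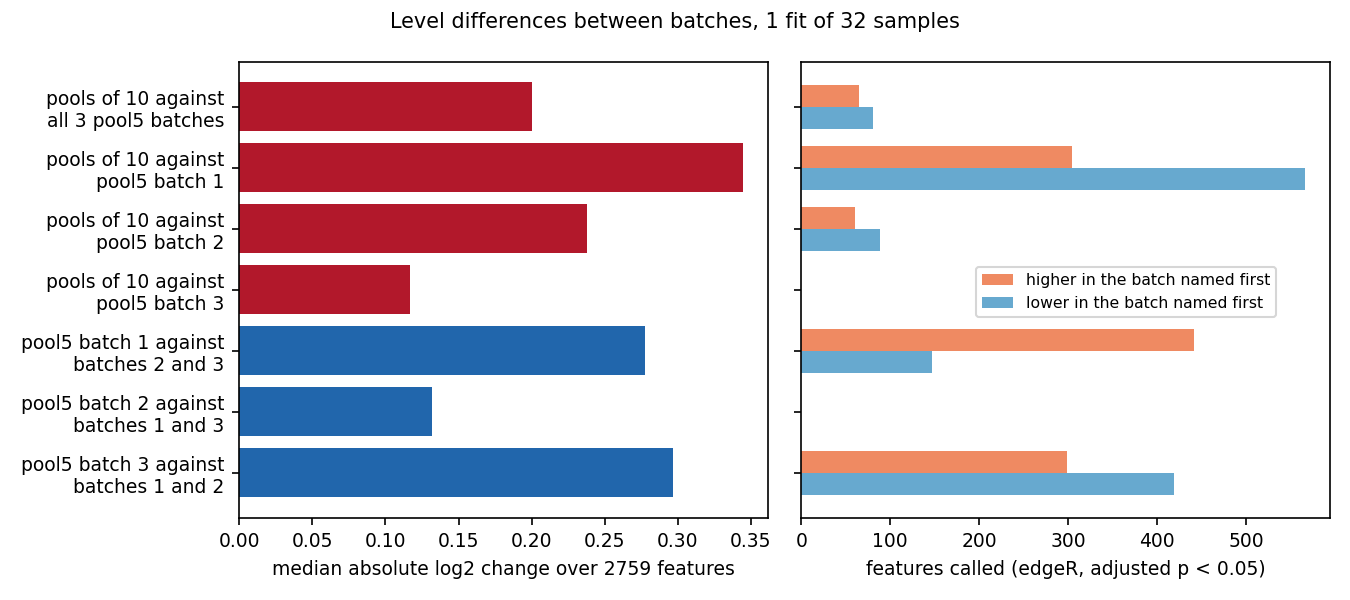
Left, median absolute log2 change over 2759 features for the pools of 10 against the pools of 5 (red) and for each pool5 batch against the others (blue). Right, the number of features called by edgeR in each comparison, higher and lower in the batch named first. The pools of 10 have a median of 0.12 and 0 calls against pool5 batch 3, and 0.34 and 871 calls against pool5 batch 1. The fit gives each feature 1 measure of spread for all batches, so the counts of calls are not on equal terms.

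With the extraction batch as the replicate, on counts summed over the 8 samples of each batch, 0 features were called between the batch of pools of 10 and the 3 batches of pools of 5 by edgeR, and 10 had an unadjusted p under 0.05. With the batch as a random effect in limma-voom, 0 were called and 96 had an unadjusted p under 0.05. Leaving out pool5 batch 1 gave 88 calls, leaving out batch 2 gave 22 and leaving out batch 3 gave 482.

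The closeness to pool5 batch 3 was also seen among all batches of the series. Over 2198 features, the root mean square difference in mean log2 CPM between the pools of 10 and another batch was smallest for pool5 batch 3, at 0.210. It was 0.393 for pool5 batch 2 and 0.558 for pool5 batch 1. The single embryos of the same exposure as the pools of 10 lay at 0.558. Single embryos of the earlier exposure lay at 0.756 (batch 1) and 0.507 (batch 2). The other batches of pools of 10, exposed in November, lay at 0.912 and 1.14. Within the pools of 5, batch 1 and batch 2 differed by 0.316, batch 1 and batch 3 by 0.564, and batch 2 and batch 3 by 0.398. By these values the pools of 10 lay nearer to pool5 batch 3 than any batch of pools of 5 lay to another. Each distance is between means of 8 samples and includes their sampling error, for which no allowance was made. That error is larger in batches that vary more. The median standard deviation of log2 CPM was 0.48 and 0.30 in pool5 batches 1 and 2, against 0.20 in batch 3 and 0.19 in the pools of 10. When samples 5 to 8 of pool5 batch 1 were left out, that batch lay at 0.314 from the pools of 10, 0.289 from pool5 batch 2 and 0.345 from pool5 batch 3. Without its sample 6 alone these were 0.450, 0.223 and 0.460. Pool5 batch 3 and the pools of 10 also have adjacent library numbers. Batch 3 of the pools of 20, exposed in November, adjoins the pools of 10 in library number on the other side and lay at 0.617 from them. By the median absolute difference, in place of the root mean square, pool5 batch 3 was again nearest, at 0.099. The single embryos of the same exposure came next at 0.213, followed by pool5 batch 2 at 0.217. Pool5 batch 1 lay at 0.337, and single embryos of the earlier exposure at 0.433 (batch 1) and 0.243 (batch 2). The order of batches thus depends on the measure. The part of library order in these distances was not tested.

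Of the 146 features called against the mean of the 3 batches, 140 (95.9%) had a level in the pools of 10 outside the range of the 3 pool5 batch means, beside 45.2% of all features tested. For 135 of the 146 (92.5%), the nearest pool5 batch mean was that of batch 3, beside 61.5% of all features tested. Their median absolute log2 change was 0.81 against batch 1, 0.65 against batch 2 and 0.18 against batch 3. The calls were made from the same values, so these shares describe the called features and are not a test.

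The 10 features with the largest called rise ran from a log2 change of 0.92 to 1.51, and their mean level ran from 10.8 to 1165 CPM in the pools of 10. All 10 were also called against pool5 batch 1, 3 of them against batch 2 and 0 against batch 3. Of all features 31.6%, 5.44% and 0% were. The 10 were chosen from the same fit for large called changes, so these counts describe them and are not a test. Feature 622 had 45.1, 75.5 and 105 CPM (lowest, median and highest of 8) in the pools of 10, against 0.744, 12.2 and 28.0 CPM in pool5 batch 1, 4.99, 12.0 and 88.1 CPM in pool5 batch 2 and 26.7, 54 and 94.1 CPM in pool5 batch 3. Every pool of 10 lay above every sample of pool5 batch 1, and the pools of 10 overlapped with batches 2 and 3. The log2 change against the mean of the 3 batches was 1.47 ± 0.36 (SE; edgeR adjusted p = 0.0274).

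Feature 2294 was the most abundant of the 10 features that rose most. It had 737, 1102 and 1619 CPM (lowest, median and highest) in the pools of 10, against 104, 282 and 495 CPM in pool5 batch 1, 84.2, 293 and 1436 CPM in pool5 batch 2 and 644, 903 and 1459 CPM in pool5 batch 3. The lowest pool of 10 was above all of batch 1, while samples of batch 2 spanned a 17.1-fold range that reached into the pools of 10. The log2 change was 1.22 ± 0.32 (SE; edgeR adjusted p = 0.0291), and against batch 3 alone it was 0.24 (edgeR adjusted p = 1). Feature 161 had 169, 204 and 260 CPM in the pools of 10, against 11.7, 78.1 and 100 CPM in batch 1, 52.6, 88.2 and 264 CPM in batch 2 and 123, 165 and 232 CPM in batch 3 of the pools of 5. It was called with a log2 change of 0.94 ± 0.23 (SE; edgeR adjusted p = 0.0256).

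Feature 3166 rose least among these 10 and was 1 of the 3 that were called against batch 2 as well. It had 27.6, 47.2 and 78.6 CPM (lowest, median and highest) in the pools of 10, against medians of 18.6, 22.3 and 38.8 CPM in pool5 batches 1, 2 and 3. Its log2 change was 0.92 ± 0.22 (SE; edgeR adjusted p = 0.0215). Features 1558, 2972, 2653, 2197 and 2342 had log2 changes between 1.00 and 1.51, with edgeR adjusted p-values between 0.0274 and 0.0495. Their changes against pool5 batch 3 alone lay between 0.20 and 0.37 on the log2 scale, none called. Feature 1558 had the largest rise, at a median of 8.35 CPM in the pools of 10, against 1.19, 1.50 and 7.35 CPM in pool5 batches 1, 2 and 3. Its lowest samples in batches 1 and 2 were at 0 and 0.166 CPM, below what 3 counts make, so the size of its rise is uncertain. Its mean reached 10 CPM only in the pools of 10 (10.8, against 4.89 CPM in the pools of 5). The tenth is described with the single embryos.

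The 10 features with the largest called fall ran from a log2 change of -1.87 to -1.04, and their mean level ran from 3.96 to 96.5 CPM in the pools of 10. All 10 were called against pool5 batch 1, 8 of them against batch 2 and 0 against batch 3, beside 31.6%, 5.44% and 0% of all features. They too were chosen from the same fit, so these counts are a description. Feature 566 had 69, 93.6 and 133 CPM (lowest, median and highest) in the pools of 10, against 90.6, 321 and 2657 CPM in pool5 batch 1, 98.4, 211 and 553 CPM in pool5 batch 2 and 83.4, 110 and 132 CPM in pool5 batch 3. The lowest samples of all 3 pool5 batches lay within the range of the pools of 10. The medians of batches 1 and 2 lay above the highest pool of 10. The log2 change was -1.44 ± 0.41 (SE; edgeR adjusted p = 0.0386).

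Feature 955 had 22.7, 25.8 and 47.6 CPM in the pools of 10, against 32.7, 103 and 213 CPM in pool5 batch 1, 32.8, 74.7 and 134 CPM in pool5 batch 2 and 33.6, 38.2 and 48.6 CPM in pool5 batch 3. A single pool of 10, sample 1, was high at 47.6 CPM, and it alone overlapped with the pools of 5. The log2 change was -1.23 ± 0.27 (SE; edgeR adjusted p = 0.018). Feature 1810 had the largest fall, with 1.53, 4.79 and 9.33 CPM in the pools of 10, against 6.21, 42.5 and 65.3 CPM in batch 1, 4.97, 26 and 59 CPM in batch 2 and 4.42, 7.95 and 9.74 CPM in batch 3 of the pools of 5. Its log2 change was -1.87 ± 0.40 (SE; edgeR adjusted p = 0.018), and -0.50 against batch 3 alone (edgeR adjusted p = 1). Features 1448, 1781, 201, 1349, 2275, 2574 and 636 had log2 changes between -1.77 and -1.04, with edgeR adjusted p-values between 0.0274 and 0.0376.

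Samples 5 to 8 of pool5 batch 1 moved with these features. Feature 566 averaged 1116 CPM in samples 5 to 8 and 160 CPM in samples 1 to 4 of that batch. Feature 622 averaged 4.66 CPM in samples 5 to 8 and 21.8 CPM in samples 1 to 4. Without samples 5 to 8, all 20 features kept the direction of their change. Of the 10 that were higher 6 stayed called by edgeR, and of the 10 that were lower 2 did. The edgeR adjusted p-values of all 20, called or not, lay between 0.0156 and 0.103. On batch sums all 20 kept their direction and 0 of them were called (edgeR adjusted p = 0.975 for each).

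**Figure D3:**
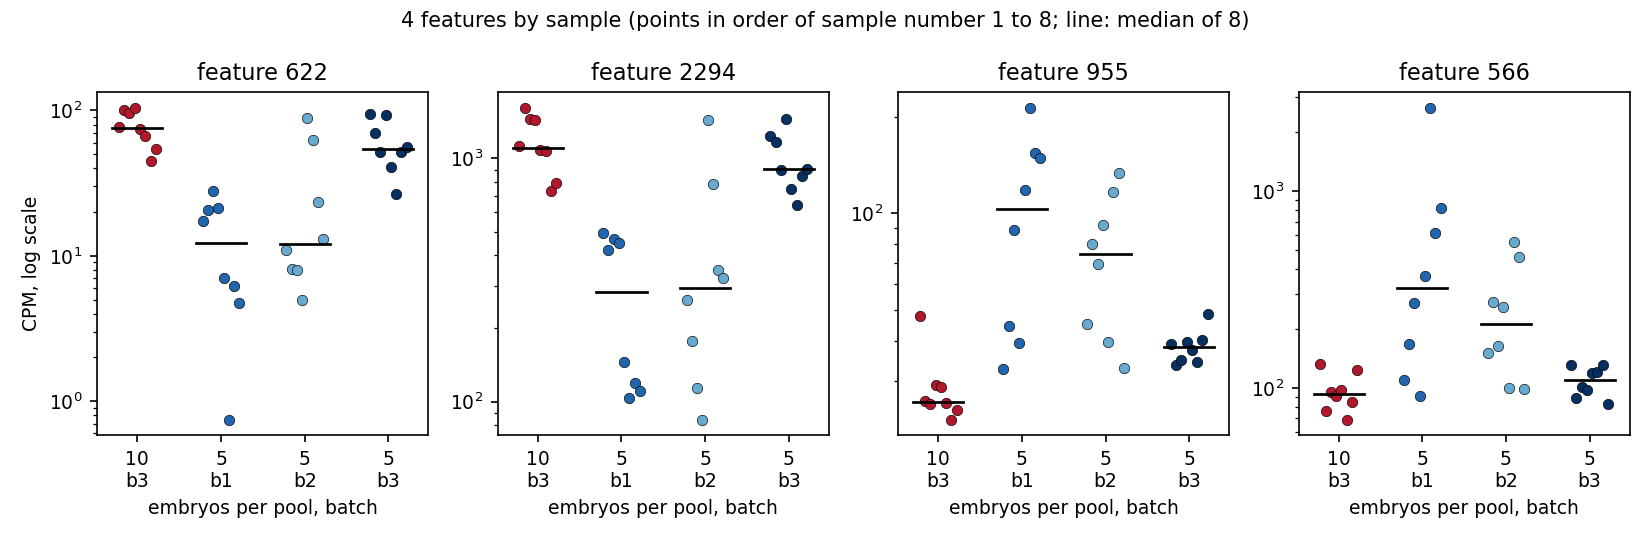
CPM (log scale) of features 622, 2294, 955 and 566 in every sample, with pools of 10 batch 3 at the left and pools of 5 batches 1, 2 and 3 after it (10 b3, 5 b1, 5 b2 and 5 b3 on the x axis), points in order of sample number and a line at the median of 8. In each panel the pools of 10 lie close to pool5 batch 3, and samples of pool5 batches 1 and 2 spread away from them, feature 566 up to 2657 CPM.

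Pool5 batch 3 was then set against the pools of 10 in a fit of these 16 samples alone, which takes its spread from 2 batches that vary little. This fit was added after the data were seen. Of 2591 features, 36 (1.39%) were called by edgeR, 8 higher and 28 lower in the pools of 10, and DESeq2 called 75. In fits of the same kind 476 of 2613 features (18.2%) were called against pool5 batch 1 and 504 of 2651 (19%) against batch 2, so that batches 1 and 2 stood in the other order here. The 95% interval of the difference from batch 3 lay within 2-fold for 92.1% of features, with a median half-width of 0.25 on the log2 scale. The log2 changes of the called features ran from -0.96 to 1.66, and 3 of them exceeded 2-fold. For 11 features (0.425% of 2591) the 8 pools of 10 and the 8 samples of pool5 batch 3 did not overlap in CPM, beside 64 (2.45% of 2613) against pool5 batch 1 and 33 (1.24% of 2651) against pool5 batch 2. There were 94 (3.6% of 2613) against pool5 batch 1 without its samples 5 to 8, where 4 samples part from 8 more readily than 8 do.

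Feature 1474 had the largest rise. It had 12.5, 15.9 and 24.3 CPM (lowest, median and highest) in the pools of 10, against 2.10, 4.83 and 12.1 CPM in pool5 batch 3, without overlap, and the log2 change was 1.66 ± 0.27 (SE; edgeR adjusted p = 0.0021). In pool5 batches 1 and 2 its medians were 17.1 and 16.2 CPM, close to that of the pools of 10. Feature 1473, in the row before it, had 193, 317 and 384 CPM in the pools of 10, against 106, 171 and 204 CPM in pool5 batch 3 (log2 change 0.90, edgeR adjusted p = 9.42e-04). Its medians in pool5 batches 1 and 2 were 456 and 383 CPM, above that of the pools of 10. Features 1278 and 305 rose by 1.50 and 1.35 on the log2 scale. Their medians were 3.98 and 7.21 CPM in the pools of 10 and 1.23 and 2.93 CPM in pool5 batch 3. They were higher in pool5 batch 1, at 5.81 and 9.71 CPM, and in batch 2, at 6.73 and 9.47 CPM. The other 4 that were higher, features 2102, 486, 2560 and 2246, had changes between 0.18 and 0.43 on the log2 scale. Feature 2560 had medians of 1600 and 1592 CPM in pool5 batches 1 and 2, above 952 CPM in the pools of 10. The medians of features 2102, 486 and 2246 in those batches lay below the pools of 10.

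Among the 28 that were lower, feature 563 had 169, 239 and 290 CPM in the pools of 10, against 324, 390 and 435 CPM in pool5 batch 3, without overlap. Its log2 change was -0.69 (edgeR adjusted p = 9.42e-04), and it was also called against the mean of the 3 pool5 batches, with a log2 change of -0.50 ± 0.13 (SE; edgeR adjusted p = 0.0274). Feature 1808 had 77.5, 88.8 and 97.1 CPM in the pools of 10, against 108, 118 and 136 CPM in pool5 batch 3, also without overlap, and its log2 change was -0.45 (edgeR adjusted p = 9.42e-04). Its medians in pool5 batches 1 and 2 were lower, at 66.6 and 75.2 CPM. Features 1096, 1105, 1111, 1449, 1101 and 2995 fell by 0.45 to 0.96 on the log2 scale, each with an edgeR adjusted p between 0.0108 and 0.0491. In pool5 batches 1 and 2 the medians of features 1096 and 1101 lay below the pools of 10. Those of features 1105, 1111, 1449 and 2995 lay above.

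Levels of the most abundant features are read beside those of all features. Over all 2759, the median absolute log2 change was 0.20 and 5.29% were called. The 10 with the highest mean level had log2 changes between -0.05 and 0.20 against the mean of the 3 pool5 batches, and 0 were called by edgeR (adjusted p between 0.061 and 0.89). The top feature, 2323, had 66529, 72638 and 80958 CPM (lowest, median and highest) in the pools of 10, against 59693, 67631 and 80065 CPM in pool5 batch 1, 47905, 72139 and 77688 CPM in pool5 batch 2 and 67240, 72820 and 78601 CPM in pool5 batch 3. Feature 2293 came nearest to a call among them, with a log2 change of 0.15 ± 0.05 (SE; edgeR adjusted p = 0.061). Against pool5 batch 1, 2 of the 10, features 2293 and 2999, were called, beside 31.6% of all features. Feature 2333 had 24187, 26623 and 28296 CPM in the pools of 10, against 5215, 22205 and 26509 CPM in pool5 batch 1. Its spread within that batch was wide, while its median was within 1.5-fold of that of the pools of 10.

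Some features kept 1 level in all 4 batches. Feature 1064 had 461, 490 and 515 CPM (lowest, median and highest) in the pools of 10, against medians of 479, 485 and 498 CPM in pool5 batches 1, 2 and 3. Feature 33, at a lower level, had 36.6, 43.6 and 50.9 CPM in the pools of 10, against medians of 41.6, 42.3 and 42.9 CPM. Together with features 2627, 1802 and 1333, they had log2 changes between -0.02 and 0.02, and were chosen for having the closest batch means.

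The single embryos of the same days hold the same exposures without pooling. Batch 3 of the single embryos was exposed from 13 December, like the pools of 10, and batches 1 and 2 were exposed from 12 December, like the pools of 5, with 8 samples each. In single embryos the later exposure differed from the earlier in 372 of 2849 features (13.1%; limma-voom with a weight per batch). Exposure, extraction day and batch cannot be told apart there either. Of the 146 features called between pools of 10 and 5, 129 (88.4%) had a change of the same direction in single embryos, beside 1840 of all 2759 features (66.7%). The median log2 change of the 65 that were higher in the pools of 10 was 0.54 in pools and 0.56 in single embryos, and that of the 81 that were lower was -0.57 in pools and -0.36 in single embryos. Features are not independent replicates, and across them the log2 changes of pools and single embryos correlated at r = 0.28 over all and r = 0.71 over the called ones. The called ones hold large changes of both signs, which raises r. Within the 65 that were higher r was 0.54, and within the 81 that were lower it was 0.23. Without samples 5 to 8 of both batches numbered 1, the share of the 146 with 1 direction was 78.1%, beside 56.4% of all features. The correlations were then 0.48 over the 146, 0.47 within the 65, -0.23 within the 81 and 0.025 over all features.

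When the change in single embryos was subtracted from that in pools, 104 features (3.65%) were called, 57 with a positive and 47 with a negative difference (pools minus single embryos), by limma-voom with a weight per batch. The remaining feature of the 10 that rose most, which earlier results had named for pools of 10 against single embryos, showed such a difference. It had 259, 356 and 429 CPM (lowest, median and highest) in the pools of 10, against 8.00, 108 and 249 CPM in pool5 batch 1, 48.3, 115 and 320 CPM in pool5 batch 2 and 278, 316 and 363 CPM in pool5 batch 3. In pools its log2 change was 1.02 ± 0.31 (SE; edgeR adjusted p = 0.0495), and in single embryos the later exposure stood against the earlier at -2.03 (limma-voom adjusted p = 0.0906). The 4 features that earlier results named for pools of 10 against single embryos, this one included, had log2 changes between pools of 10 and 5 from -0.68 to 1.02, and it was the only one called by edgeR.

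**Figure D4:**
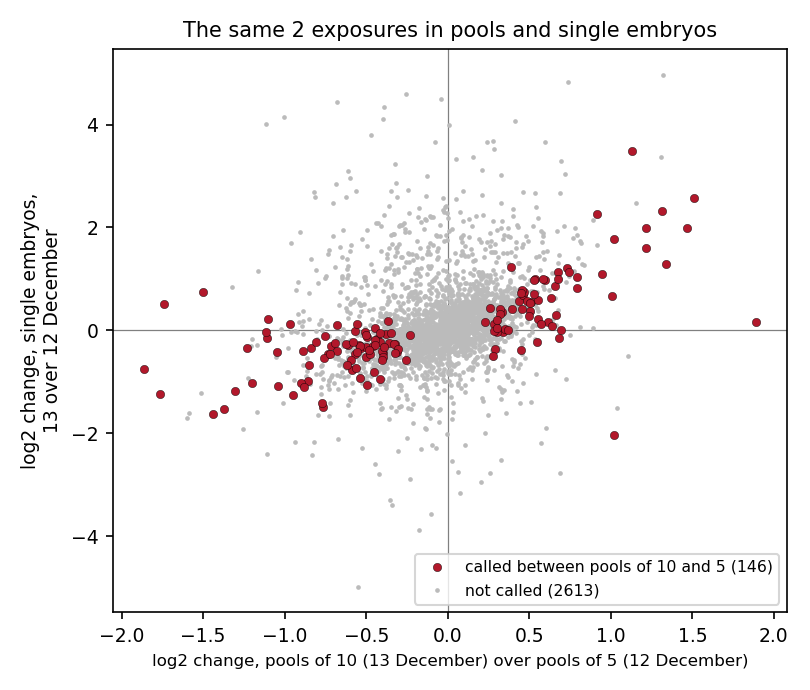
Log2 change of each feature between pools of 10 and pools of 5 (x axis) and between single embryos of the later and the earlier exposure (y axis), for 2759 features, with the 146 called in pools in red. Of the red points 88.4% lie where both changes have 1 sign, and 66.7% of all points do.

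The second comparison asked whether samples of 10 embryos varied less than samples of 5. With all samples, samples of 10 varied much less than pool5 batches 1 and 2, and close to as much as pool5 batch 3. Without samples 5 to 8 of batch 1 the gap to that batch was smaller. The median standard deviation of log2 CPM was then 0.19 in the pools of 10 and 0.23 in batch 1, which had 4 samples left. By the coefficient of variation, defined next, the values were 16.3% and 25.2%. The biological coefficient of variation, taken as the root of the common dispersion that edgeR estimates over the features of a batch, was 16.2% in the pools of 10, against 44.8%, 29.9% and 18.5% in pool5 batches 1, 2 and 3. The pools of 5 averaged 31.1% ± 13.2 (SD, n = 3 batches), and the ratio of the pools of 10 to them was 0.520. If samples were averages of independent embryos and nothing else varied, going to 10 embryos, against 5, would give a ratio of 0.707. The ratio was 0.361 to batch 1, 0.541 to batch 2 and 0.873 to batch 3, so the value for averaging lay between the ratios to batches 2 and 3. With 1 batch against 3, an exact permutation test could not go below p = 0.25, and none was run.

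Without sample 6 of pool5 batch 1 the coefficient of that batch was 32.5% and the ratio to all pools of 5 was 0.600. Without samples 5 to 8 these were 25.2% and 0.660. With each pool5 batch left out in turn the ratio ran from 0.433 to 0.671. Batches of the other pool sizes, under a filter common to all 12 batches, ran from 57.5% to 70.2% in single embryos, from 14.5% to 18.0% in pools of 20, and were 20.3% and 25.9% in the pools of 10 exposed in November, beside 16.6% in the pools of 10 of December.

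Sample by sample, the distance of a sample from the mean of the other 7 of its batch (root mean square over 2022 features, log2 CPM) averaged 0.281 ± 0.023 in the pools of 10 (SD, n = 8). It averaged 0.611 ± 0.315 in pool5 batch 1, 0.426 ± 0.061 in batch 2 and 0.302 ± 0.024 in batch 3 (SD, n = 8 each). The 8 pools of 10, from 0.251 to 0.320, lay below every sample of batches 1 and 2, whose lowest values were 0.396 and 0.359. They overlapped with batch 3, from 0.277 to 0.352. The exact two-sided permutation p was 0.0001554 against each of batches 1 and 2, the smallest possible with 8 against 8 (adjusted over the 3 batches 0.0002331), and 0.0926 against batch 3. Without samples 5 to 8, the remaining 4 samples of pool5 batch 1 averaged 0.407 ± 0.030 (SD, n = 4), from 0.368 to 0.435, and all 8 pools of 10 again lay lower (exact two-sided permutation p = 0.00202, the smallest possible with 8 against 4, adjusted over the 3 batches 0.00303). A mean of 3 other samples is less precise than a mean of 7. Samples of a batch share the mean of that batch, so these p-values are approximate. A pool of 10 had 5 to 19 features more than 2-fold from its batch median, mean 11 ± 4.54 (SD, n = 8). The pools of 5 had 18 to 866 in batch 1, 26 to 81 in batch 2 and 6 to 19 in batch 3, with means of 168, 45.6 and 14. The mean of batch 1 rests on sample 6, and the other 7 samples averaged 67.9. With samples 5 to 8 left out and the batch median taken again, the pools of 10 averaged 10.1 and pool5 batch 1 averaged 27.2.

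Feature by feature, the median standard deviation of log2 CPM within a batch was 0.19 in the pools of 10, against 0.48, 0.30 and 0.20 in pool5 batches 1, 2 and 3, over the 2022 features that averaged 50 counts or more. The standard deviation exceeded 1 in 7 features in the pools of 10, against 182, 32 and 13 features. In the pools of 10 it was smaller than in batch 1 for 93.1% of features, smaller than in batch 2 for 79% and smaller than in batch 3 for 50.1%. With samples 5 to 8 left out, the median standard deviation of batch 1 was 0.23, 17 of its features exceeded 1, and the pools of 10 were smaller for 62.7% of features. With all samples, the pools of 10 had a smaller median than batches 1 and 2 in each of 5 abundance classes, while against batch 3 the order varied. Below 30 CPM the median standard deviation was 0.31 in the pools of 10, against 0.56, 0.39 and 0.32, and above 1000 CPM it was 0.10 in the pools of 10, against 0.42, 0.22 and 0.09. In the pools of 10 and in pool5 batches 2 and 3 it thus fell with abundance. In pool5 batch 1, samples 5 to 8 included, it was 0.42 or more in each class.

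A test of absolute deviations in limma, feature by feature, called 0 features (0%) between the pools of 10 and the mean of the 3 pool5 batches. At an unadjusted p under 0.05 it gave 389, and the estimate was smaller in the pools of 10 for 88.4% of features. Against pool5 batch 1 it called 791 (39.1%), of which 789 varied less in the pools of 10. Without sample 6 of that batch it called 439. Without samples 5 to 8 it called 11 (0.545%), all 11 smaller in the pools of 10. The count of 11 rests on fewer samples of that batch and is not on equal terms with the 791 that the test called above. The test called 2 against batch 2 (0.0989%), both smaller, or 223 without samples 5 to 8 of batch 1. Against batch 3 it called 0 (0%; limma, all samples, 35 at an unadjusted p under 0.05, and 3 called with weights). With a variance weight for each batch, added after the data were seen, limma called 481 features against the mean of the pools of 5, 479 of them smaller in the pools of 10, and 312 without sample 6 of pool5 batch 1. The test without weights gives all batches 1 variance. On simulated data it recovered only a small share of the features given another spread when few features differed, and a larger share when many did. Its 0 calls thus do not show equal spread. No feature was called for spread against the mean of the 3 batches in the test without weights, so the features named next were taken by the size of the difference and are a description.

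Feature 1578 varied less in the pools of 10 than in any batch of pools of 5. It had 112, 148 and 180 CPM (lowest, median and highest) in the pools of 10, against 28.3, 109 and 216 CPM in pool5 batch 1, 22, 85.3 and 192 CPM in pool5 batch 2 and 35.7, 131 and 270 CPM in pool5 batch 3. The highest sample was 1.61 times the lowest in the pools of 10, against 7.64, 8.76 and 7.55 times in pool5 batches 1, 2 and 3. Feature 17 had 21.8, 95 and 117 CPM in the pools of 10, against 3.58, 139 and 348 CPM in batch 1, 4.94, 60.5 and 312 CPM in batch 2 and 9.04, 84.3 and 159 CPM in batch 3. Features 2952, 1631 and 1448 also had smaller standard deviations in the pools of 10 than in each batch of pools of 5, with values in the pools of 10 of 1.39, 0.60 and 0.25 on the log2 scale.

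Feature 2337 went the other way. It had 20.5, 155 and 182 CPM in the pools of 10, with a standard deviation of 1.06 on the log2 scale, against 54.1, 207 and 451 CPM in batch 1, 151, 214 and 265 CPM in batch 2 and 68.5, 175 and 238 CPM in batch 3 of the pools of 5, where standard deviations were 0.90, 0.25 and 0.63. Features 1501, 55, 3034 and 1935 also had larger standard deviations in the pools of 10 than in each batch of pools of 5, between 0.46 and 0.86.

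Of the 7 features whose standard deviation exceeded 1 in the pools of 10, feature 2299 had the widest spread, at 1.82. It had 42.6, 1166 and 2215 CPM in the pools of 10, against 26.8, 208 and 1143 CPM in pool5 batch 1, 44.3, 735 and 1480 CPM in pool5 batch 2 and 35.2, 524 and 2550 CPM in pool5 batch 3. The highest sample was 52.1 times the lowest in the pools of 10, against 42.7, 33.4 and 72.5 times in pool5 batches 1, 2 and 3. Features 1767, 2952, 592 and 847 ranged from 9.74-fold to 33.4-fold among the pools of 10. The lowest samples of features 1767, 2952 and 847 were at 1.08, 0.862 and 0.255 CPM. These lie near or below the 0.813 CPM that 3 counts make in the smallest library, so their fold ranges are uncertain. A pair of features that earlier results named for their wide spread among single embryos had log2 changes of -0.26 and 0.33 between pools of 10 and pools of 5. Neither was called for level (edgeR adjusted p = 0.783 and 0.649). Their standard deviations in the pools of 10 were 1.05 and 1.27 on the log2 scale. In pool5 batches 1, 2 and 3 they were 1.38, 1.85 and 0.66 for the first, and 1.93, 0.82 and 0.74 for the second. The second is among the 7 features above, and the first averaged too few counts for the test of spread.

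**Figure D5:**
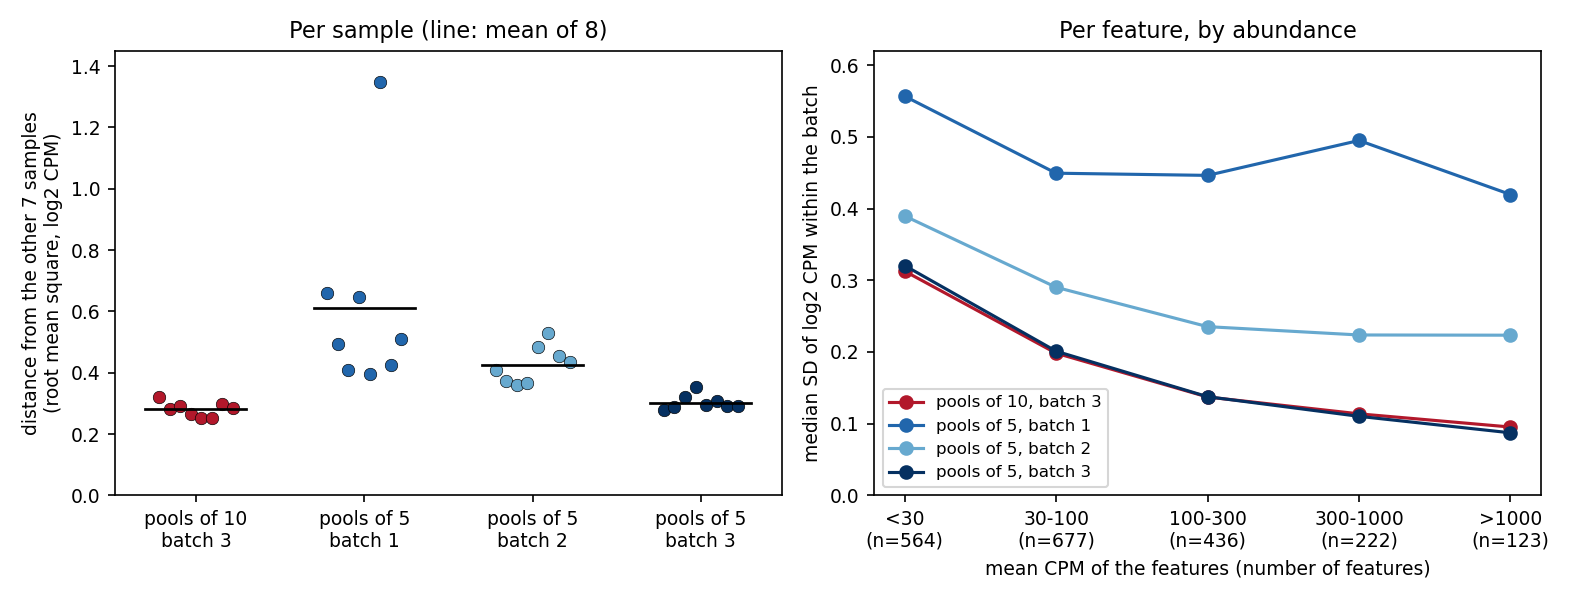
Left, distance of each sample from the mean of the other 7 of its batch (root mean square over 2022 features, log2 CPM), 1 point per sample and a line at the mean of 8. Right, the median within-batch standard deviation of log2 CPM for features grouped by mean CPM. The pools of 10 and pool5 batch 3 lie together in both panels, below pool5 batches 2 and 1, and sample 6 of pool5 batch 1 lies at 1.35.

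The number of features detected, with at least 5 counts in a sample, averaged 2767 ± 47.4 in the pools of 10 (SD, n = 8). The pools of 5 averaged 2799 ± 50.1 in batch 1, 2841 ± 43.6 in batch 2 and 2747 ± 21.1 in batch 3 (SD, n = 8 each). Only the difference from batch 2, of -74.6 features, passed the exact two-sided permutation test (p = 0.0009324, adjusted over the 3 batches 0.0028). Batch 2 also had the largest libraries, with a mean of 4495882.5 counts in the pools of 10 and 5604113 counts in that batch. With all 32 libraries thinned to 1 total, the difference was -33.8 features and did not pass (exact permutation, adjusted p = 0.177).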

How the data were processed

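TempO-Seq counts of 32 samples were analysed. The authors deposited a table of raw counts, whole numbers per feature with no normalization, with 3183 rows and 96 sample columns. The submitters' processing notes name DESeq2 1.31.15, RSEM 1.3.3, STAR 2.7.10a, fastp 0.23.2 and bcl2fastq 2.20, with no role for any of them. The genome build is not given in the sources here. Without molecular identifiers, amplification copies are counted as reads.

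Features passed edgeR's filter on low counts (2759 of 3183) and were scaled by TMM. Levels were tested with edgeR 4.0.16 (quasi-likelihood F test, 1 coefficient per extraction batch) in R 4.3.3, with Benjamini-Hochberg adjustment at 0.05. Spread was tested in limma 3.58.1, from each sample's absolute deviation from its batch mean (log2 CPM, prior count 2), for the 2022 features that averaged 50 counts or more. Values per sample were compared with exact permutation tests. The scripts were tested on simulated data. DESeq2 1.42.0, other scalings, filters, weights, thinning, batch sums and left-out samples or batches were alternatives. Over 112 pairs of samples of 1 batch the chi-square per degree of freedom was at least 10.7, above counting error. No pair was counted as 1 sample. Amplification copies are counted too, so the chi-square cannot show whether samples share RNA.

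Samples were grouped by their labels. The comparison, the features and the tests were chosen with earlier results of these data known. Named for level were the 10 largest called rises and falls among features with at least 10 CPM in either group whose mean in the pools of 10 lay on 1 side of all 3 pool5 batch means. The 10 most abundant, 5 with the closest batch means and 6 from earlier results were also described, and the features named for spread and against pool5 batch 3 alone were chosen after their values were seen.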

Additional observations from a re-analysis of the deposited data

Results flagged for a closer look

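Values were screened for a single sample far from the other 7 of its batch, by the gap to its nearest neighbour as a share of the range. Of 168 batches of values 19 stood out, and chance flags about 1 in 20 groups. In the pools of 10 there were 2. Feature 955 was at 47.6 CPM in sample 1, and feature 1802 was at 835 CPM in sample 7.

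Sample 6 of pool5 batch 1 stood out in 9. Its distance from the other samples was 1.35, it had 866 features over 2-fold from the batch median, and it lay at 29.7 on the second principal component. In it feature 1448 was at 130 CPM, feature 566 at 2657 CPM and feature 2275 at 219 CPM, each the highest of its batch. Feature 2303 was also highest, at 24211 CPM, and features 2309 and 2999 were lowest, at 18356 and 11248 CPM.

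In pool5 batch 2, sample 5 was highest for feature 2653 at 77.6 CPM, for feature 161 at 264 CPM and for feature 3166 at 51.3 CPM. Sample 6 of that batch was lowest for feature 2323 at 47905 CPM, for feature 2999 at 16907 CPM and for feature 2297 at 10233 CPM. In pool5 batch 3, sample 8 had 2701 detected features, the fewest, and the highest level of feature 955 there, at 48.6 CPM.

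The feature among the 10 largest rises that earlier results had named for pools of 10 against single embryos had a change between pools of 10 and 5 that differed from the change between the same exposures in single embryos by 3.38 on the log2 scale (limma-voom adjusted p = 0.016, pools minus single embryos). It was higher in the pools of 10, at a median of 356 CPM, against 108, 115 and 316 CPM in the 3 batches of pools of 5. In single embryos of the later exposure its median was 16.6 CPM, against 105 and 187 CPM in batches 1 and 2 of the earlier exposure. Samples ranged from 4.93 to 395 CPM over the 3 batches. Pools of 10 and single embryos both enter the difference of 3.38, so the earlier choice of this feature partly set its call in advance.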

How the results depend on the processing

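Calls in level between pools of 10 and pools of 5 (146) numbered 259 with DESeq2, 667 with a variance weight per batch, 283 without sample 6 of pool5 batch 1, 89 without its samples 5 to 8, 0 on batch sums, 0 with batch as a random effect, and 22 to 482 with a pool5 batch left out. Against pool5 batch 1 (871) they numbered 14 without samples 5 to 8 and 476 in a fit of the 2 batches. Against batch 2 (150) they numbered 273 with DESeq2, 617 with weights, 478 without sample 6, 646 without samples 5 to 8 and 504 in a fit of the 2 batches. Against batch 3 (0) they numbered 6 with DESeq2, 45 with weights, 5 without sample 6, 10 without samples 5 to 8 and 36 in a fit of the 2 batches. Between pool5 batches, batch 1 (589) had 0 with weights, 148 without sample 6 and 19 without samples 5 to 8. Batch 2 (0) had 14 with DESeq2, 4 with weights and 314 without samples 5 to 8, and batch 3 (718) had 421 without samples 5 to 8. With samples left out fewer samples were fitted, and in other cases the cause was not tested.

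Samples with the same number did not pair: 48 pairs had correlations from -0.51 to 0.51, with 10 over 0.1, and 8 samples correlated best with their own number. With the replicate number as a block the pools of 10 had 128 calls against the pools of 5, 2 against batch 3 alone, and pool5 batch 2 had 1 against the others. DESeq2's size factors moved the share of higher calls to 48.3%, beside 44.5% with TMM. Of the 20 features named for a rise or fall, all kept their direction under each alternative run. They were chosen as called and on 1 side of all 3 pool5 batch means, which largely set that outcome in advance.

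Calls for spread numbered 481 with a variance weight per batch, and 312 without sample 6 as well, against the pools of 5 (0). Against pool5 batch 1 (791) they numbered 518 with weights, 167 in a fit of the 2 batches, 439 without sample 6 and 11 without samples 5 to 8. Against batch 2 (2) they numbered 182 with weights, 33 in a fit of the 2 batches, 59 without sample 6 and 223 without samples 5 to 8 of batch 1, and against batch 3 (0) they numbered 3 with weights. These fits for spread were chosen after seeing the data, and those with samples left out had fewer samples. The difference in detected features was 3.62 against batch 1 at 1 count or more (main -32.5) and -13.8 against batch 3 at 10 counts or more (main 19.8), both reversed. Against batch 2 it was -18.9 at 1 count or more and -33.8 on thinned counts, both short of the threshold (main -74.6). Depth limits features near 0.813 CPM, where 3 counts are at stake in the smallest library.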

Other observations

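The most abundant features lay close together in the table. Of the 10 most abundant over the 32 samples 7 lay in rows 2293 to 2333, where 41 tested features lie, and so did 21 of the 50 most abundant. The rows were chosen after the values were seen, as the window of 50 rows that holds most of the 10. The order of the rows is not explained in the labels, and whether neighbouring rows are related targets was not tested. Features 1473 and 1474, both higher in the pools of 10 than in pool5 batch 3 by edgeR in the fit of those 16 samples, are also neighbours.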
